A study of Drosophila melanogaster with 22 samples.

Results

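Gene counts were compared between the CMC-treated and the mock-treated libraries of w1118 heads in a Psi-seq experiment, a method that maps pseudouridine (Psi) in RNA. The members are the 7 w1118 pairs, 3 of Exp 1 and 4 of Exp 2, which make 14 of the 22 libraries and 7 of the 11 pairs in the series. They were chosen by genotype alone, and no measured value entered the choice. The question was which transcripts take a larger or smaller share of the counts after CMC, and whether both experiments agree.

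The flies were virgin females of an isogenized w1118 strain, aged 1 day, and each replicate was RNA of 100 heads. RNA was enriched on oligo(dT) beads, spike-in RNA was added, and each sample was then divided into 1 portion treated with CMC and 1 mock treated, so that a pair shares its flies, its RNA and its enrichment. Heads pool many cell types and each RNA sample is a pool of flies, so fewer cells of a type and less RNA per cell cannot be told apart. The other 4 pairs carry a deletion of RluA-2, the gene of a pseudouridine synthase, in Exp 2 and were used for 1 comparison only.

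CMC is a carbodiimide that adds to uridine, guanosine and pseudouridine. A mild alkaline step removes it from the first pair, and the adduct left on pseudouridine stops reverse transcriptase next to the modified base. Pseudouridine is abundant in rRNA, tRNA and snRNA and is made either by stand-alone enzymes or by H/ACA ribonucleoproteins, which find their target with a guide RNA. Both portions of a pair hold the same RNA, so the comparison concerns what a library records of a transcript after the treatment and not its level in the fly.

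The surroundings of Psi sites that the study listed in 4 small RNAs with large falls by counts are shown here. tRNA:Glu-TTC-1-6, which fell by 1.30 against 0.86 for 7SK, is not among them. Each line gives 10 bases on either side of the site, 5′ to 3′ in the sense of the RNA with T for U, and the capital T marks the site.
snRNA:U5:63BC: cgccttttacTaaagatttcc
snRNA:U5:63BC: aacactctaaTgagtctaaaa
snRNA:7SK: gaagccgtatTgggcggggac
tRNA:Val-CAC-1-1: ggttatcacgTgtgcttcaca
tRNA:Leu-TAA-4-1: agatttaagcTctggttctcg
The sites lie on chromosome arm 3L at 3090846 and 3090876 on the plus strand for U5, on 3R at 7474728 on the minus strand for 7SK, on 3R at 17617787 on the plus strand for tRNA:Val-CAC-1-1 and on 3R at 24265298 on the plus strand for tRNA:Leu-TAA-4-1, all in release 6 coordinates. The study chose these sites on the same libraries, and whether a site bears on the count of its RNA was not tested.

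Total gene counts ran from 12035142 to 30701799 per library, and 15513 of 17101 genes had at least 1 count. Markers of neurons, photoreceptors, glia, fat body and muscle were all covered. Of 5 ovary markers 1 was assigned, vas, with 27256 terminations summed over the CMC libraries. The same sums were 9316 for the neuronal elav and 5290 for the glial repo, not scaled for length. These sums take in whole spans, including positions that spans of other genes share, so they do not rank the levels of the genes. The span of vas did not pass the filters for a test. Of 3 testis markers 1 was assigned, and of 2 gut markers 0. Only 199 of the gene identifiers could be paired with a symbol, which is why a coverage measure, introduced below, was used beside the counts.

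In 2 pairs of Exp 1 the libraries went against the labelled pairing. In 5 pairs the CMC and mock library shared deviations from their group means, with correlations across genes of 0.487 in Exp 1 replicate 1 and of 0.512, 0.294, 0.574 and 0.386 in the replicates of Exp 2. In Exp 1 replicates 2 and 3 the same correlations were -0.195 and -0.106. The CMC library of replicate 2 correlated at 0.327 with the mock library of replicate 3, and the CMC library of replicate 3 at 0.467 with the mock library of replicate 2. The labels were kept, and calls that change without these pairs are given below beside the result or in the closing section.

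CMC treatment moved many transcripts by small amounts. Of 10043 genes with enough counts to test, 1696 were higher and 1908 lower in CMC than in mock (edgeR quasi-likelihood test with the pair as a block, adjusted p under 0.05), which is 16.9% and 19% of the genes tested. The median size of a called change was 0.28 on the log2 scale, with quartiles of 0.20 and 0.39. Changes above 0.5 were seen in 511 called genes and above 1 in 151. The changes were uneven in their extremes, reaching -5.85 among losses and 1.86 among gains. All 7 pairs had the same sign in 1257 of the genes that rose and 1387 of those that fell. Full separation of the groups was less frequent, since the 7 CMC values lay below the 7 mock values in 249 genes and above them in 181, together 4.28% of the genes tested. Without Exp 1 replicates 2 and 3 the test called 1295 genes higher and 1444 lower, and without Exp 1 replicate 1 it called 1092 and 1233.

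Among genes with a symbol, the largest losses by counts belonged to short structured RNAs. tRNA:Leu-TAA-4-1, a leucine tRNA, had 4.93, 7.32 and 4.50 CPM (counts scaled to a library total of 1000000) in the CMC libraries of Exp 1 and 3.83, 4.07, 5.75 and 2.69 in those of Exp 2. The mock libraries had 21.3, 17.4 and 20.5 CPM in Exp 1 and 15.7, 14.7, 19.3 and 9.33 in Exp 2. The groups did not overlap, and the highest CMC value stayed below the lowest mock value. The log2 fold change was -1.85 (SE 0.10, edgeR adjusted p = 6.84e-07), with -1.84 in Exp 1 and -1.86 in Exp 2.

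snRNA:U5:63BC, a U5 RNA that holds the exons together in the spliceosome, fell by 1.61 (SE 0.29, edgeR adjusted p = 0.00208) and was lower in 6 of 7 pairs. Its CMC libraries ran from 1.78 to 29.2 CPM with a median of 8.40, and its mock libraries from 6.24 to 77.1 with a median of 23.1. The ranges overlap widely, since levels differed between RNA samples, and the exception was Exp 1 replicate 2, with 29.2 CPM in CMC and 27.6 in mock. Without Exp 1 replicates 2 and 3 the change was -1.72. The fit without the pair as a block gave -1.63 with an adjusted p of 0.0578.

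snRNA:7SK, the RNA that keeps the elongation kinase P-TEFb inactive, was lower in all 7 pairs. It had 150.5, 260.0 and 143.0 CPM in the CMC libraries of Exp 1 against 383, 314 and 544 in mock, and 182.0, 238, 461 and 292 in those of Exp 2 against 329, 369, 669 and 422. The groups overlapped through Exp 2 replicate 3, which was the highest on both sides. The log2 fold change was -0.86 (SE 0.16, edgeR adjusted p = 0.00269).

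A valine and a glutamate tRNA also fell, each in 6 of 7 pairs. tRNA:Val-CAC-1-1 ran from 0.392 to 13.7 CPM in CMC (median 1.31) and from 2.96 to 20.7 in mock (median 6.49), with a log2 fold change of -1.33 (SE 0.30, edgeR adjusted p = 0.00685). Its exception was again Exp 1 replicate 2. Without Exp 1 replicates 2 and 3 its change was -2.09. tRNA:Glu-TTC-1-6 ran from 9.68 to 32.2 CPM in CMC and from 2.86 to 70.2 in mock, with a log2 fold change of -1.30 (SE 0.30, edgeR adjusted p = 0.00774). The lone low mock library was Exp 2 replicate 2, and there the mock portion was below the CMC portion.

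Several other RNAs of this kind did not pass the test on counts over 7 pairs. The threonine tRNA tRNA:Thr-AGT-1-6 had a log2 fold change of -0.60 (adjusted p = 0.118), snRNA:U1:82Eb, which pairs with the 5′ splice site, -0.35 (0.137), and the H/ACA guide snoRNA:Psi28S-3342 -0.18 (0.552). Without Exp 1 replicates 2 and 3 the first passed (-0.73, edgeR adjusted p = 0.0217), as did snoRNA:Psi28S-3342 (-0.31, 0.0340). In Exp 2 alone all 3 passed, with -0.51 (adjusted p = 0.00508) for the tRNA, -0.16 (0.0481) for U1 and -0.39 (0.00286) for the guide. snRNA:U2:34ABc ran from 0.050 to 52.9 CPM among mock libraries alone, and its value of -0.64 (SE 0.95) has no settled sign. The counts in these families are uncertain, because read pairs that fit several copies were discarded when genes were counted.

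**Figure D1:**
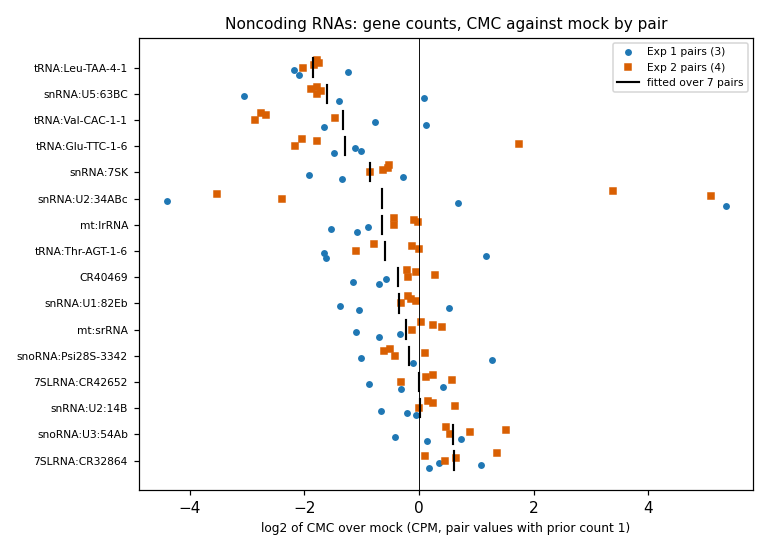
The log2 of CMC over mock, from CPM with a prior count of 1, is plotted for each pair of 16 noncoding RNAs, with circles for the 3 pairs of Exp 1, squares for the 4 pairs of Exp 2 and a bar for the value fitted over 7 pairs. All 7 points of tRNA:Leu-TAA-4-1 and snRNA:7SK lie below 0, while those of snRNA:U2:34ABc lie on both sides.

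Mitochondrial large-subunit rRNA, mt:lrRNA, was the most abundant gene, and its share of all counts fell. The CMC libraries of Exp 1 held 3.22, 2.42 and 3.09% of their counts in it and the mock libraries 6.80, 6.98 and 5.73%. In Exp 2 the CMC libraries held 3.29, 4.09, 3.03 and 2.85% and the mock libraries 4.34, 4.12, 3.22 and 3.83%. The separation was wide in Exp 1 and narrow in Exp 2, where replicate 2 was nearly level. The log2 fold change was -0.64 over 7 pairs (SE 0.16, edgeR adjusted p = 0.0106), -1.17 in Exp 1 and -0.25 in Exp 2, and the 2 experiments differed by 0.93 (adjusted p = 0.0107). Without Exp 1 replicates 2 and 3 the change was -0.41 (adjusted p = 0.0405).

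The small-subunit rRNA of the mitochondrion, mt:srRNA, had opposite signs in the 2 experiments. Its counts changed by -0.71 in Exp 1 and 0.14 in Exp 2, a difference of 0.85 (edgeR adjusted p = 0.0170), and the value over 7 pairs of -0.23 did not pass the test. CMC ran from 287 to 938 CPM and mock from 280 to 1297, so the groups overlap across nearly their whole range.

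**Figure D2:**
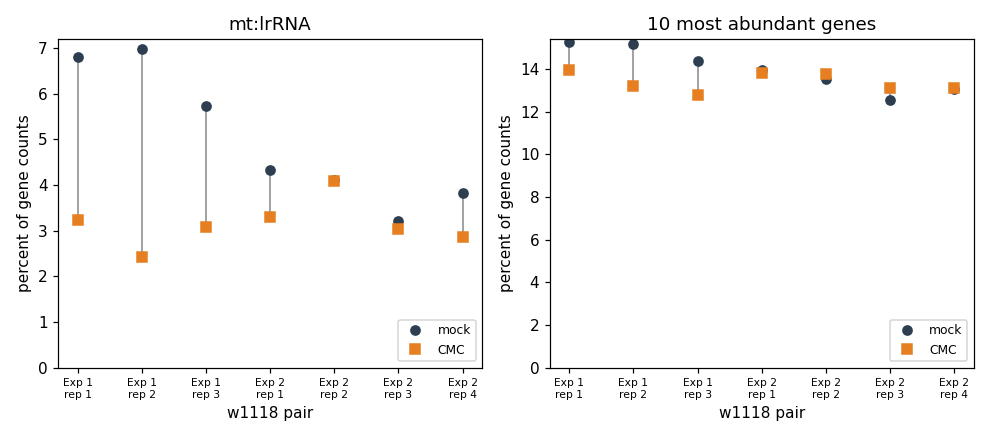
The percent of gene counts is plotted for each w1118 pair, in mt:lrRNA on the left and in the 10 most abundant genes on the right, with circles for mock and squares for CMC joined within a pair. In Exp 1 mock lies above CMC in every pair of both panels, and in Exp 2 the 2 portions lie close together. The 10 genes on the right include mt:lrRNA.

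The concentration of the libraries in their most abundant genes followed the same split. The 10 most abundant genes held 1.31, 2.00 and 1.58 percentage points less of the counts in CMC than in mock in Exp 1, where the mean difference was -1.63. In Exp 2 the mean difference was 0.17, and 1 of the 4 pairs was lower in CMC. Over 7 pairs the difference was -0.60 (SD 1.00, n = 7), and an exact sign-change permutation test gave p = 0.219, two-sided, where 0.0156 is the smallest value that 7 pairs allow. At a common depth of 12035142 counts, CMC libraries had 47.1 more genes with at least 1 count (SD 139, n = 7, exact permutation p = 0.406, two-sided), with differences from -130 to 263. The direction of that difference turned with the settings, and genes with at least 5 counts were 81.7 fewer in CMC, lower in all 7 pairs (exact permutation p = 0.0156).

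Among named genes that rose by counts, 2 noncoding RNAs had the largest values. 7SLRNA:CR32864, the RNA of the signal recognition particle, was higher in CMC in all 7 pairs, from 10.1 to 37.2 CPM (median 26.7) against 8.66 to 26.6 (median 14.4), with a log2 fold change of 0.60 (SE 0.14, edgeR adjusted p = 0.00677). snoRNA:U3:54Ab, a U3 RNA of pre-rRNA processing, rose by 0.59 (SE 0.19, adjusted p = 0.0344) at a low level, 1.71 against 1.11 CPM at the medians. That call ended when any of Exp 1 replicate 2 or Exp 2 replicates 1 to 4 was left out, with adjusted p from 0.0539 to 0.0876. DESeq2 did not call it either (adjusted p = 0.0995). Both genes have near copies, and the coverage measure below gave them the opposite sign.

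The named protein-coding genes that rose were led by snama. This gene, the homolog of the ubiquitin ligase RBBP6, rose by 0.47 (SE 0.08, edgeR adjusted p = 0.00166). Its CMC libraries had 72.6, 70.2 and 65.2 CPM in Exp 1 and 53.8, 49.5, 45.2 and 45.3 in Exp 2, and its mock libraries 38.8 to 44.0. The groups did not overlap, and Exp 1 stood above Exp 2 on the CMC side only. lwr, the SUMO-conjugating enzyme Ubc9, rose by 0.36 (SE 0.07, adjusted p = 0.00366), with 55.7 to 73.1 CPM in CMC and 43.0 to 51.1 in mock. Asx, a Polycomb-group protein, rose by 0.24, Su(var)205, the heterochromatin protein HP1a, by 0.23, pps, a partner of the splicing protein Snf, by 0.23 and Pnn, a splicing cofactor, by 0.22. IA-2, a protein of dense-core vesicles, rose by 0.20, from a median of 1793 to 1924 CPM, and its call ended without Exp 1 replicate 1, Exp 1 replicate 3 or Exp 2 replicate 4. Vajk4 rose by 0.35, CG9018 by 0.22, the kinase sqa by 0.18 and the COP9 signalosome subunit CSN3 by 0.17. The CSN3 call ended without Exp 1 replicate 1 or without Exp 2 replicate 1, 3 or 4, and the CG9018 call without Exp 1 replicate 1 or without replicates 2 and 3 (adjusted p = 0.0507). DESeq2 did not call CSN3 (adjusted p = 0.0757), and edgeR without the pair as a block did not call Pnn (adjusted p = 0.0535).

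Named protein-coding genes that fell did so by small amounts. RpLP1, an acidic protein of the ribosomal stalk, fell by 0.20 (SE 0.05, edgeR adjusted p = 0.01001), with 838 to 1106 CPM in CMC and 954 to 1246 in mock and a lower CMC value in all 7 pairs. Treh, the enzyme that cleaves trehalose, fell by 0.19 (adjusted p = 0.00793), and Herc4, a ubiquitin ligase, by 0.14 (adjusted p = 0.0236). The Herc4 call ended without Exp 1 replicate 1, without replicate 2, and without replicates 2 and 3 (adjusted p = 0.0740). CG12091 fell by 0.12 (adjusted p = 0.0495), a call lost whenever any pair was left out. It was also lost with DESeq2 (adjusted p = 0.0678) and with edgeR scaled by library totals alone (0.0789) or without a filter on low counts (0.0950). The noncoding CR40469 fell by 0.37 (adjusted p = 0.0483), but its 7-pair call ended without any of the 3 pairs of Exp 1 or without Exp 2 replicate 1 or 4, and was -0.17 without Exp 1 replicates 2 and 3 (adjusted p = 0.253). DESeq2 did not call it (adjusted p = 0.102), nor did edgeR scaled by library totals alone (0.0539) or without the pair as a block (0.101).

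Among genes with a mean of at least 5 CPM and one sign in all 7 pairs, the identifiers with the largest changes have no symbol in the tables used here. FBgn0013704 had a mean of 115 CPM in mock and 4.60 in CMC, with mock libraries from 66.2 to 204 and CMC libraries from 1.62 to 9.32, and a log2 fold change of -4.67. The groups were far apart. FBgn0013693 went from 11.2 to 0.671 CPM at the means (log2 fold change -3.85), although its lowest mock library had 0.718 and its highest CMC library 1.45. In the other direction FBgn0029970 went from 14.1 to 39.1 CPM (1.65), with mock libraries from 1.07 to 52.5 that overlap the CMC range of 2.75 to 102, and FBgn0038235 from 3.92 to 7.29 (0.84).

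Fitted alone, Exp 1 called 1239 genes higher (12.3%) and 1253 lower (12.5%), and Exp 2 called 1540 higher (15.3%) and 1652 lower (16.4%). Both fits, which share no library, called 1542 genes in the same direction (15.4%) and 8 in opposite directions (0.0797%). Without Exp 1 replicate 1 these counts were 551 and 2, and over the other pairs left out in turn they reached 1987 and 28. Across the 10043 genes the 2 sets of log2 fold changes correlated at r = 0.77, and single pairs correlated with each other at 0.38 to 0.72. Genes are not independent replicates, and pairs of one experiment shared their preparation.

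The size of the response differed more than its direction. The SD of the log2 fold changes was 0.46 in Exp 1 and 0.32 in Exp 2, and the central 90% of genes lay between -0.67 and 0.56 in Exp 1 and between -0.40 and 0.26 in Exp 2. The difference between experiments passed the test in 986 genes (9.82%). In 772 of these the sign was the same, and the change was the larger one in Exp 1 in 771. The other 214 had opposite signs. This count rests on single pairs, since the test called 0 genes without Exp 1 replicate 1 (2033 and 2031 without replicates 2 and 3 of Exp 1, 119 to 435 without a pair of Exp 2). Among named genes, snama (0.73 in Exp 1, 0.27 in Exp 2, difference adjusted p = 0.0114) and lwr (0.59 and 0.20, 0.0219) were of the first kind. ScsbetaA, a subunit of succinyl-CoA synthetase, had -0.19 in Exp 1 and 0.06 in Exp 2 (difference adjusted p = 0.0392), and CG41099 had -0.19 and 0.10 (0.0454).

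**Figure D3:**
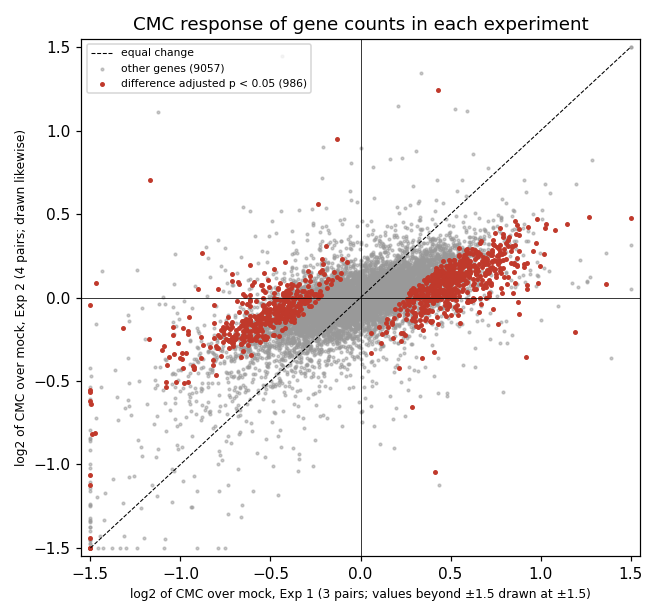
Each point is a gene, with the log2 of CMC over mock in Exp 1 on the horizontal axis and in Exp 2 on the vertical axis, values beyond 1.5 drawn at the edge, and the dashed line marking equal change. The 986 genes whose response differed between experiments lie mostly between the dashed line and the horizontal axis, where the change is larger in Exp 1.

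The response to CMC was then compared with that of the RluA-2 deletion in Exp 2, the only other pairs of the series. The test of the difference called 0 of 10051 genes (0%), with 294 at an unadjusted p under 0.05 by edgeR and 0 calls by DESeq2. The direction in which single genes leaned was therefore not read. Without w1118 replicate 4 the test called 9 genes, and without w1118 replicate 1 it called 2.

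To reach genes by name, the coverage in the deposited termination files was summed over each annotated gene span at the positions listed for both libraries of a pair, and compared as log2 of CMC over mock after centring on the median gene. Of 11186 spans assigned, 3350 were deep enough to test, and 816 were higher (24.4%) and 823 lower (24.6%) in CMC (limma, pair as a block, adjusted p under 0.05). For 23 protein-coding genes measured both ways, the log2 changes of counts and coverage correlated at 0.95, with a median absolute difference of 0.029. The sign was the same in 20 of them. Their largest coverage change was 0.41, for lwr, so the larger changes of protein-coding genes given below were not checked in this way. For 10 noncoding RNAs the measures disagreed in sign 3 times. 7SLRNA:CR32864 had 0.60 by counts and -0.84 by coverage, snoRNA:U3:54Ab 0.59 and -1.60, and snRNA:U2:14B 0.02 and -1.98. A direction for these RNAs thus depends on the measure. The counts held them at low levels, with means of 20.7, 1.49 and 7.04 CPM in the same order. Their spans had mean depths of 76006, 2862 and 1188 per listed position. The protein-coding lwr, for scale, had 56.1 CPM and a mean depth of 83.9. Relative to lwr, these 3 RNAs had far less signal by counts than by coverage. How reads that fit several copies enter the coverage was not tested. snRNA:7SK, with -0.86 and -1.10, and mt:lrRNA, with -0.64 and -0.62, had the same sign in both. Levels by coverage are given below in ppm, the part of a library's summed span coverage times 1000000.

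All 13 mRNAs of the mitochondrial genome, which encode subunits of the respiratory chain and ATP synthase, fell by coverage (13 of 13 lower, beside 24.6% of all spans). Their median change was -0.998, against -0.003 over all spans tested, with -1.32 in Exp 1 and -0.57 in Exp 2. The largest falls were on the strand that carries few genes. mt:ND1 (positions 11721 to 12659, minus strand), a complex I subunit, had 232, 106 and 297 ppm in the CMC libraries of Exp 1 and 68.4, 145, 79.5 and 61.5 in Exp 2. Its mock libraries had 556, 897 and 586 in Exp 1 and 332, 377, 286 and 263 in Exp 2. Only the CMC library of Exp 1 replicate 3 lay within the mock range, and the log2 change was -1.90 (SE 0.20, limma adjusted p = 0.000162).

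The other complex I mRNAs of the minus strand followed. mt:ND4L (9545 to 9835) fell by 1.81, mt:ND4 (8207 to 9545) by 1.63 and mt:ND5 (6409 to 8125) by 1.34. Of the plus-strand mRNAs, mt:ND3 fell by 1.32, mt:ATP8 by 1.17, mt:ND6 by 0.998, mt:ND2 by 0.89 and mt:COX1 by 0.81. The least affected were mt:CYTB (-0.70), mt:ATP6 (-0.64), mt:COX3 (-0.63) and mt:COX2 (-0.50), the last a subunit of cytochrome oxidase. mt:COX1, also of cytochrome oxidase, ran from 2210 to 4476 ppm in CMC and from 4162 to 7942 in mock, so that single libraries overlapped while all 7 pairs fell.

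The mitochondrial mRNAs differed in how far Exp 2 followed Exp 1. mt:ND1 had -1.87 in Exp 1 and -1.93 in Exp 2, and mt:ND4L had -1.84 and -1.79. mt:COX2 had -1.03 and -0.11, and the difference passed the test (limma adjusted p = 0.00220), as it did for mt:CYTB, mt:ATP6, mt:COX3, mt:ND2 and mt:ND6. Both rRNAs of the organelle differed between experiments as well (adjusted p = 0.00647 for mt:lrRNA and 0.00333 for mt:srRNA). In Exp 2 replicate 2, mt:ATP8 (76.8 ppm in CMC, 44.5 in mock), mt:ATP6, mt:COX2 (2897 and 2509), mt:COX3, mt:CYTB and mt:ND6 were higher in CMC. The other mRNAs of the organelle were lower in that pair. The medians of mt:ATP8 over all libraries were close, 52.7 ppm in CMC and 57.5 in mock. Without Exp 1 replicates 2 and 3 the calls of mt:ATP6 (-0.33, adjusted p = 0.0616), mt:COX2 (-0.27, 0.112) and, by coverage, mt:lrRNA (-0.36, 0.0641) were lost. Leaving out Exp 1 replicate 1 or replicate 3 alone also ended the mt:COX2 call, and the fit without the pair block ended that of mt:ATP8.

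**Figure D4:**
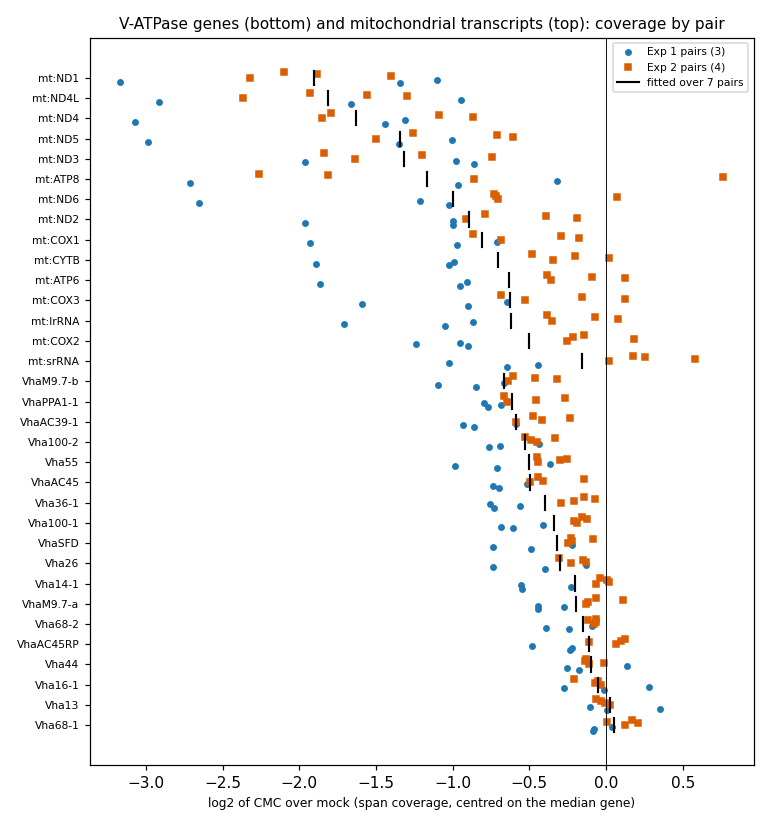
The log2 of CMC over mock by span coverage is plotted for each pair, with mitochondrial transcripts in the upper rows and V-ATPase genes in the lower rows, circles for Exp 1, squares for Exp 2 and a bar for the value over 7 pairs. Every point of mt:ND1, mt:ND4L, mt:ND4, mt:ND5 and mt:ND3 lies below 0, and mt:srRNA has its Exp 1 points below and its Exp 2 points above 0.

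Spliceosomal snRNAs fell by coverage in 5 of 6 spans tested, beside 24.6% of all spans, with a median of -1.14. snRNA:U6:96Ab, whose RNA forms the catalytic centre, had -2.02 (SE 0.23, limma adjusted p = 0.000220), and snRNA:U2:14B, which pairs with the branch point, -1.98. snRNA:U1:82Eb had -1.41 and snRNA:U1:21D -0.88. The medians were -1.19 in Exp 1 and -1.10 in Exp 2. snoRNAs fell in 3 of 4 spans (median -0.68), and the 2 7SL copies and 7SK in 3 of 3 (median -1.004). No tRNA span was deep enough to test. The 10 long noncoding and antisense RNAs tested gave 2 higher, 3 lower and a median of -0.18, beside 24.4% higher and 24.6% lower over all spans.

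Genes for V-ATPase, the proton pump that acidifies vesicles and organelles, were lower in 12 of 18 spans and higher in 0, beside 24.6% and 24.4% of all spans, with a median of -0.31. This family was picked after its values had been seen. Vha55, the B subunit, ran from 344 to 612 ppm in CMC and from 555 to 710 in mock, a change of -0.50 (SE 0.08, limma adjusted p = 0.000923) with a fall in all 7 pairs. VhaM9.7-b fell by 0.66, VhaPPA1-1 by 0.61, VhaAC39-1 by 0.59, Vha100-2 by 0.53 and VhaAC45 by 0.49. Of the 12, VhaM9.7-a (-0.20) and Vha68-2 (-0.15) lost the call when centred in bins of depth (limma adjusted p = 0.0623 and 0.128), without the pair block (0.155 and 0.117) and without Exp 1 replicate 1, replicate 2 or both replicates 2 and 3. VhaM9.7-a also lost it without Exp 1 replicate 3 or Exp 2 replicate 1. Subunits with no call included Vha68-1 (0.05), Vha13 (0.02), Vha16-1 (-0.05) and Vha44 (-0.10). Tetraspanins, membrane proteins picked in the same way, were lower in 8 of 12 and higher in 1, with a median of -0.23.

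Nuclear protein-coding genes with the largest falls by coverage were Tom7, of the mitochondrial import pore, at -1.10 (27.4 to 49.7 ppm in mock, 7.62 to 27.8 in CMC) and BomS4, an immune-induced peptide, at -1.09. Both fell more in Exp 1 than in Exp 2, by a difference of 0.70 for Tom7 (adjusted p = 0.0224) and 1.13 for BomS4 (adjusted p = 0.00220). ATPsynbeta, a catalytic subunit of ATP synthase, fell by 0.48, and eEF2, the translocase of translation elongation, by 0.33. The eEF2 call was lost without Exp 1 replicates 2 and 3 (-0.24, adjusted p = 0.0545).

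Among genes that rose, tau, a microtubule-binding protein of axons, had 356, 356 and 359 ppm in the CMC libraries of Exp 1 and 256, 247, 206 and 231 in those of Exp 2, against 148, 167 and 152 and against 150.3, 170.3, 134 and 154 in mock. The groups did not overlap, mock was alike in both experiments, and CMC was higher in Exp 1. The log2 change was 0.81 (SE 0.09, limma adjusted p = 0.000162), 1.10 in Exp 1 and 0.60 in Exp 2. CG15772 rose by 1.01, with 31.3 to 56.6 ppm in CMC and 13.3 to 21.3 in mock.

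The other large rises covered unrelated roles. CG18428 rose by 0.80, Pfdn1, a prefoldin chaperone subunit, by 0.70, HmgZ, a DNA-bending chromatin protein, by 0.69, RpL28, of the large ribosomal subunit, by 0.69 and Taf10, a TFIID subunit, by 0.63. Dso1, an immune peptide, rose by 0.68, bcn92 by 0.68 (0.675 before rounding), CG12071 by 0.66 and CG13722 by 0.65. Each was higher in all 7 pairs. Hsp70Ba, an inducible chaperone, rose by 0.69, but its level split by experiment. Exp 1 had 54.7, 54.1 and 46.9 ppm in CMC and 21.9, 17.6 and 20.2 in mock. Exp 2 had only 0.730 to 1.41 ppm in CMC and 0.590 to 1.22 in mock. Its call was lost in Exp 2 alone (0.25, limma adjusted p = 0.206) and without Exp 1 replicates 2 and 3 (0.45, adjusted p = 0.0573).

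Abundant transcripts of head tissue moved both ways. Yp1, a yolk protein made by female fat body, had 10956 to 14520 ppm in mock and 14432 to 22052 in CMC, a rise of 0.39 (limma adjusted p = 0.00391). Yp2 rose by 0.20, a call lost without the pair block (limma adjusted p = 0.0812), and Yp3 at 0.13 did not pass. Lsp2, a storage protein of fat body, rose by 0.46, while the fat body marker apolpp, at 0.03, did not pass (limma adjusted p = 0.782). The glial markers did not move as one. Gs2, the glutamine synthetase of glia, fell by 0.38, nrv2 rose by 0.27 (limma adjusted p = 0.00105) and repo, at -0.03, did not pass. ninaE, the rhodopsin of the outer photoreceptors, rose by 0.16 in all 7 pairs (adjusted p = 0.0238), a call that ended without Exp 1 replicate 1, Exp 1 replicate 3, Exp 2 replicate 4 or both Exp 1 replicates 2 and 3 (adjusted p = 0.0564). The ninaE call also ended without the pair block (limma adjusted p = 0.106) and with a lower coverage minimum (0.0678). retinin, a protein of the corneal surface, fell by 0.27. Arr1, the arrestin of phototransduction, at -0.09, Mhc, muscle myosin, at -0.08, and Mlc2, its light chain, at 0.16, did not pass. The muscle marker up rose by 0.33 (limma adjusted p = 0.00144).

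In the neuronal and sensory lists the counts are read beside 24.4% higher and 24.6% lower over all spans. Synaptic release genes rose in 3 of 11 spans and fell in 2 (median 0.05), with cpx, the complexin clamp, at 0.33 and nSyb, the vesicle SNARE, at 0.31 among the rises. Voltage-gated channels rose in 3 of 9 and fell in 2 (median 0.10). Phototransduction genes rose in 3 of 17 and fell in 2 (median -0.08), odorant-binding proteins rose in 3 of 14 and fell in 2 (median 0.05), with Obp44a at 0.30 and Obp56d at -0.21, and neuropeptide precursors rose in 1 of 9 and fell in 2 (median -0.05), with CCHa2 at 0.38. The Obp56d call ended without any of the 3 pairs of Exp 1 or without Exp 2 replicate 1, and without Exp 1 replicates 2 and 3 its adjusted p was 0.151. It also ended without the pair block (limma adjusted p = 0.0718).

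Housekeeping lists are read beside the same shares, 24.4% higher and 24.6% lower. Cytoplasmic ribosomal proteins were lower in 25 of 79 spans and higher in 14 (median -0.05), within a range of -0.61 to 0.69, so the list did not move as one. Mitochondrial ribosomal proteins, which are encoded in the nucleus, were higher in 12 of 31 and lower in 5 (median 0.09), unlike the transcripts of the organelle. Translation factors gave 11 higher and 7 lower of 35 (median 0.06) and the proteasome 6 and 5 of 30 (median 0.005). Glycolysis gave 1 higher and 4 lower of 11 (median -0.10), with the aldolase Ald1 at -0.20, and nuclear genes of ATP synthase 2 and 5 of 11 (median -0.11).

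Cuticle proteins rose in 8 of 14 and fell in 4 (median 0.18, beside 24.4% higher and 24.6% lower over all spans), with Cpr100A at 0.45 and Cpr72Ec at 0.21. The Cpr72Ec call ended without the pair block (limma adjusted p = 0.0713). Heat shock proteins rose in 7 of 13 and fell in 2 (median 0.15), while the abundant chaperones Hsp83 at 0.04 and Hsc70-4 at 0.11 did not pass. Sarcomere genes gave 3 higher and 3 lower of 13, histones 1 and 1 of 4 and fat body proteins 1 and 1 of 6. None of 5 antimicrobial peptides passed, with Drs, which acts on fungi, at -0.003 and Def, a defensin, at -0.09. RluA-1, a pseudouridine synthase and the only enzyme of its list deep enough to test, rose by 0.23 (SE 0.05, limma adjusted p = 0.00318) in all 7 pairs.

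**Figure D5:**
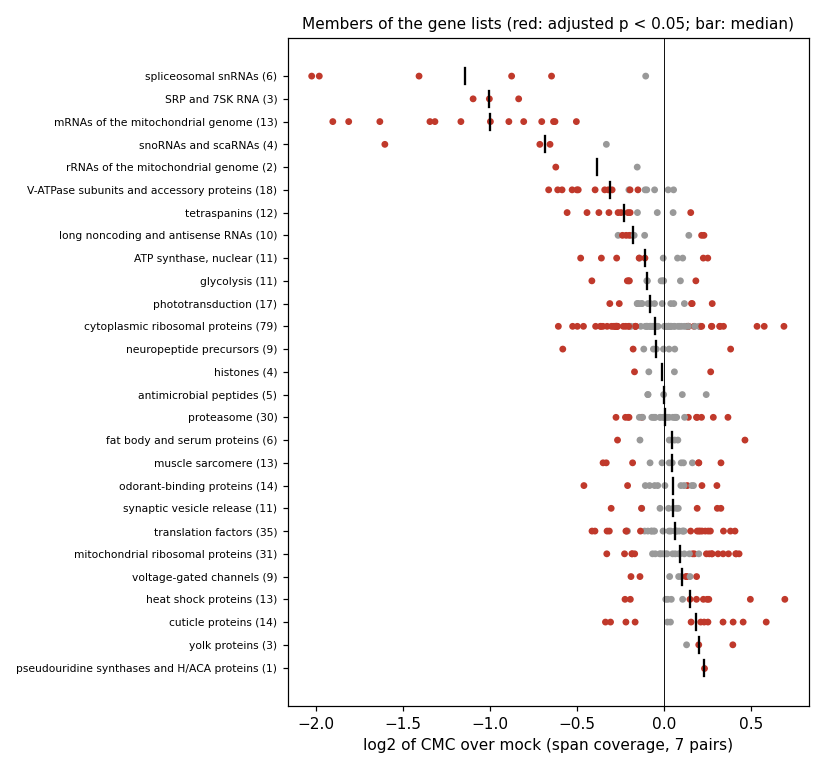
Each point is a gene of a list, placed by its log2 of CMC over mock in span coverage over 7 pairs, red where the limma adjusted p was under 0.05, with a bar at the list's median and the number tested in brackets. The lists of spliceosomal snRNAs, of SRP and 7SK RNA, of mitochondrial mRNAs and of snoRNAs have the lowest medians. The medians of most other lists lie close to 0.

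By coverage the responses of the 2 experiments correlated at r = 0.75 across 3350 spans and differed in 813 (24.3%), 592 with the same sign and 221 with opposite signs. Among the 592 the change was larger in Exp 1 in 585. BckdhB, of branched-chain amino acid breakdown, had -0.90 in Exp 1 and 0.00 in Exp 2 (0.0048 before rounding), Arf4, a small GTPase, -0.75 and 0.07, and Pcd, of pterin metabolism, 0.70 and -0.14.

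The response was also read against abundance, covered length and chromosome. In 10 bins of mean count, the least abundant genes had a median change of -0.08 and the most abundant 0.02. Shares by coverage are read beside 24.4% higher and 24.6% lower over all spans. In 10 bins of listed positions, which follow the covered length of a gene, the longest genes were higher in 33.0% and lower in 13.5%. Their median was 0.05, and the spread of the changes narrowed from an SD of 0.34 in the shortest to 0.18 in the longest. Spans on the X chromosome were higher in 17.4% and lower in 34.2% of 553, with a median of -0.05. Among arms 2L, 2R, 3L and 3R the share higher ran from 21.5% (2L) to 29.2% (3L). The share lower ran from 20.6% (2R) to 23.9% (2L) among them. Depth by the coverage measure went the other way from mean count, from a median of 0.08 in the shallowest bin to -0.08 in the deepest. The 2 measures covered different sets of genes, and a trend with abundance thus depends on the measure. Centred in 10 bins of depth, 833 spans were higher and 776 lower. Among the 82 genes named here by coverage the calls of Obp56d, VhaM9.7-a and Vha68-2 were then lost. Among all 101 that the naming rule gave by coverage, 9 lost the call, 6 gained it and 3 turned sign.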

How the data were processed

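The labels gave each library's experiment, genotype, treatment and replicate. The authors trimmed reads with Trimmomatic 0.33, removed rRNA and spike-in reads with Bowtie2, aligned the rest with STAR 2.6.1a and counted unique, concordant, sense read pairs with featureCounts 2.0.0, and deposited the gene counts without scaling. The deposited termination files give coverage per position, used here as a signal. The termination count in the same files was used only to assign spans.

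Counts were scaled by TMM (factors 0.966 to 1.03), filtered by filterByExpr and tested with edgeR 4.0.16 (R 4.3.3), with the pair as a block. DESeq2 1.42.0 was an alternative. Spans with at least 50 listed positions, a mean summed coverage of 10000 and a mean depth of 30 were tested as log2(coverage + 100) with limma 3.58.1, which understates the change of low spans. This measure was added after the data were seen, because names were wanted for more genes. P-values were adjusted by the Benjamini-Hochberg method over all genes or spans tested. Scripts were tested on simulated data.

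The pairing comes from the study's design, in which each RNA sample was split, and its check gave own-pair correlations from -0.195 to 0.574. Replicates were separate samples of 100 heads.

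Named genes were those with the largest changes of one sign in all 7 pairs and a mean of at least 5 CPM, the 10 most abundant, the 5 with the largest opposite changes between experiments, abundant members of each list and noncoding RNAs at listed Psi sites. Members and lists were chosen with earlier results of these data known. V-ATPase genes and tetraspanins were added later, and 4 misassigned symbols were removed from lists.

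Leaving out pairs, other scalings and filters were tried. Total counts of at least 12035142 per library limit precision for rare genes only. Base composition was not analysed here.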

Additional observations from a re-analysis of the deposited data

Results flagged for a closer look

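In 3 of the 125 sets of values tested, 1 value stood far from the others, where chance gives about 1 in 20. For tRNA:Glu-TTC-1-6 by counts it was Exp 2 replicate 2, with a log2 change of 1.74 where the other pairs fell. For mt:ND5 by coverage it was an Exp 1 pair with -2.98, replicate 2, and for Vha13 by coverage it was the same pair, with 0.35. That pair is 1 of the 2 whose libraries went against the labelled pairing, and whether this bears on the 2 values was not tested.

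The response to CMC differed between experiments by a test of the difference for 44 of the named results, from 33 genes by counts and 82 by coverage. Over all features the difference passed in 9.82% of genes by counts and 24.3% of spans by coverage. By counts, Exp 2 minus Exp 1 was -0.39 for lwr, -0.46 for snama, 0.29 for CG41099, 0.24 for ScsbetaA, 0.93 for mt:lrRNA, 0.85 for mt:srRNA and 0.77 for CR40469. By coverage it was positive, so that the fall was larger in Exp 1 or turned, for snoRNA:U3:54Ab (1.53), Tom7 (0.70), BomS4 (1.13), BckdhB (0.90), Arf4 (0.82), lncRNA:CR40469 (0.88) and mt:srRNA (0.96). The same held for mt:lrRNA (1.02), mt:ND6 (1.11), mt:ND2 (0.75), mt:CYTB (1.05), mt:ATP6 (1.06), mt:COX3 (0.73) and mt:COX2 (0.92), for the V-ATPase genes VhaM9.7-b (0.36), VhaAC39-1 (0.36), Vha36-1 (0.50), Vha100-1 (0.40), Vha14-1 (0.42), VhaM9.7-a (0.33) and VhaAC45RP (0.36), and for ATPsynbeta (0.59), eEF2 (0.47) and Obp56d (0.36). It was negative for Pcd (-0.84), Taf10 (-0.41), CG12071 (-0.43), Dso1 (-0.70), HmgZ (-0.28), Hsp70Ba (-1.04), CG18428 (-0.52), tau (-0.50), CG15772 (-0.63), Mlc2 (-0.32), Obp44a (-0.28), CCHa2 (-0.27) and Yp1 (-0.43). These 44 differences include those of genes named for differing between experiments, and the count of such genes by counts fell to 0 without Exp 1 replicate 1.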

How the results depend on the processing

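Without the replicate block, 1539 genes were higher and 1687 lower, 277 differed between experiments and 667 were called the same way in both, and 417 spans were higher and 473 lower by coverage. DESeq2 called 613 genes different between experiments, 846 the same way in both and 5 in opposite ways. Without a filter on low counts the last number was 17, and 39 genes differed between genotypes. At an adjusted p under 0.01, 770 genes were higher, 948 lower, 99 differed between experiments and 411 were called the same way. Scaled by library totals without TMM, 1910 genes were higher and 1712 lower, against 1696 and 1908, which turns the larger share to the rises. With a lower coverage minimum, 1651 spans were higher and 1289 lower of 6272 tested.

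When each pair was left out in turn, the genes higher ran from 1092 to 1631, those lower from 1233 to 1778, those that differed between experiments from 0 to 2033, those called the same way from 551 to 1987, those called in opposite ways from 2 to 28, and those that differed between genotypes from 0 to 9. The lowest values of the first 5 came without Exp 1 replicate 1. Spans higher by coverage ran from 629 to 795 and lower from 597 to 805, and the difference in genes detected from 11.2 to 76.7. The percentage point difference in the 10 most abundant genes ran from -0.80 to -0.37.

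The 2 following settings were added after the data were seen. With the mock libraries of Exp 1 replicates 2 and 3 exchanged, as the crossed correlations would have it, 2163 genes were higher, 2292 lower, 2657 differed between experiments, 2415 were called the same way and 61 in opposite ways. With both pairs left out 1924 genes differed between experiments, in a test where Exp 1 held 1 pair and the spread came from Exp 2 alone, 700 spans were higher and 639 lower, and each experiment alone could not be fitted because Exp 1 kept 1 pair. The difference in genes detected, 47.1 over 7 pairs, was then -18.8. It was also negative without thinning (-31.3) and at a minimum of 5 counts (-81.7).

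The tally that follows covers the 33 genes named here by counts and the 82 named by coverage, out of 101 that the rule gave by coverage. Over the settings, 1545 values kept direction and side of the threshold, 110 lost the call, 31 gained it and 39 turned sign. By counts, snRNA:U2:34ABc turned to 0.72 with DESeq2, 0.41 in Exp 1 alone and 0.19 and 0.52 without Exp 2 replicate 1 or 3 (-1.30 to 0.52 without single pairs). CG41099 turned to 0.11 in Exp 2 alone, 0.020 without Exp 1 replicates 2 and 3 and 0.020 without Exp 1 replicate 1 (-0.067 to 0.020 without single pairs), and ScsbetaA to 0.070 and 0.018 in the first 2 of these. 7SLRNA:CR42652 turned to 0.0069 without TMM, 0.00060 with mock libraries exchanged, 0.086 without both pairs, 0.16 in Exp 2 alone and ran from -0.11 to 0.12 without single pairs. mt:srRNA turned to 0.15 in Exp 2 alone, snoRNA:Psi28S-3342 to 0.047 in Exp 1 alone, and snRNA:U2:14B to -0.31 in Exp 1 alone and ran from -0.068 to 0.12 without single pairs. By coverage, Exp 2 alone gave 0.0048 for BckdhB, 0.069 for Arf4, 0.11 for lncRNA:CR40469, 0.26 for mt:srRNA (0.078 without both pairs), 0.043 for VhaAC45RP, -0.021 for Vha13 and -0.14 for Pcd. Vha68-1 had -0.041 in Exp 1 alone, Vha13 -0.0046 with the lower minimum, -0.016 without both pairs and -0.031 to 0.045 without single pairs, and Drs 0.018 centred by depth and -0.12 to 0.088 without single pairs. Spans of low depth read higher than deep ones (medians 0.08 and -0.08), and counts of multi-copy RNAs depend on how shared reads were treated. The causes were not tested.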
